A study of Mus musculus with 6 samples.

Results

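Chemokine genes and feedback genes of the transcription factor NF-kB were examined in RNA-Seq profiles of neural stem/progenitor cells (NSC/NPCs) from the fetal mouse hypothalamus. They comprised 8 chemokines (Cxcl10, Ccl5, Ccl2, Ccl7, Cxcl1, Cxcl12, Cx3cl1 and Cxcl16) and 2 NF-kB feedback inhibitors (Nfkbia and Tnfaip3). They were chosen by name, with earlier results of these data known, and found by gene identifier. All 10 were present among the 22048 genes of the deposited table. Dams of strain C57BL/6, aged 8 weeks, were gavaged from E5.5 to E11.5 with estradiol valerate at 100 μg/kg/d (high estradiol, HE) or with the corn oil solvent alone (control, NC; labelled untreated). Cells came from the hypothalami of male fetuses at E14.5, were grown as floating spheres with EGF and bFGF, and were harvested at the first passage. There were 3 samples per group (NC1 to NC3 and HE1 to HE3), each described as holding cells of 2 mice. Each sample is thus a culture and not fresh tissue, and nothing in the labels ties a sample to a litter or dam, so p-values measure the spread between these cultures.

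Chemokines are small secreted proteins that direct cell migration through G protein-coupled receptors. Some are made at rest, such as Cxcl12 and Cx3cl1, and others are induced by cytokines, microbial products or interferons, often through NF-kB, a dimeric transcription factor held in the cytoplasm by IκB proteins. NF-kB in turn induces its own inhibitors: Nfkbia encodes IκBα, which recaptures NF-kB, and Tnfaip3 encodes A20, a ubiquitin-editing enzyme that damps signalling upstream of it. Astrocytes can make several of these chemokines, and Cxcl10 and Ccl5 also respond to interferons, so the 10 genes were set beside a list of 37 interferon-stimulated genes present in the table (those tested are plotted with them).

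Libraries held 16078675 to 19137059 reads on genes, so that 1 read on a 1 kb transcript was worth 0.0523 to 0.0622 RPKM (reads scaled by transcript length and library size). Neural stem cell markers were present: the 10 genes summed to 2908 to 3606 RPKM in NC and 2857 to 4546 in HE, mostly from Vim and Fabp7. Nes was at 158 to 204 RPKM in NC and 154 to 247 in HE, whereas Sox2 was at 195 to 209 in NC and at 176, 172 and 97.3 in HE1, HE2 and HE3. NC3 stood apart from NC1 and NC2 in most of the genes described here, though not in Cx3cl1 and not clearly in Cxcl12. HE3 had the fewest reads and stood apart from HE1 and HE2 in immediate-early genes, so fold changes are also given without NC3 and without HE3.

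The RefSeq promoter table held windows for 6 of the 10 genes (Cxcl10, Cxcl1, Cxcl12, Cx3cl1, Nfkbia and Tnfaip3; Ccl5, Ccl2, Ccl7 and Cxcl16 are only named). The stretches below are the 220 bases before the annotated start, 5′ to 3′ on the gene's strand, in build GRCm38.p6. They are shown because these genes differed in how far they varied among the samples, and capitals mark matches, on either strand, to the NF-kB consensus or to the interferon-stimulated response element GAAANNGAAA. Cxcl10 lies at chr5:92348890-92349109 (minus strand), Cxcl1 at chr5:90891025-90891244 (plus), Nfkbia at chr12:55492648-55492867 (minus), Tnfaip3 at chr10:19015411-19015630 (minus) and Cx3cl1 at chr8:94771960-94772179 (plus).
Cxcl10: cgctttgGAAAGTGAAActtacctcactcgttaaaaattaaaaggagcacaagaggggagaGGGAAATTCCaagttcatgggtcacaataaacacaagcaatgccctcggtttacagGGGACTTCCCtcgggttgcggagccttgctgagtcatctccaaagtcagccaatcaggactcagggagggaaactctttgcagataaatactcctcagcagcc
Cxcl1: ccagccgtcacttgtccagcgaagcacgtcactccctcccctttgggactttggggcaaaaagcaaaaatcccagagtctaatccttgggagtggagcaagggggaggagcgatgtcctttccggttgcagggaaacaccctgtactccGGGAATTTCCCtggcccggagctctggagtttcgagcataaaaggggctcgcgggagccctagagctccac
Nfkbia: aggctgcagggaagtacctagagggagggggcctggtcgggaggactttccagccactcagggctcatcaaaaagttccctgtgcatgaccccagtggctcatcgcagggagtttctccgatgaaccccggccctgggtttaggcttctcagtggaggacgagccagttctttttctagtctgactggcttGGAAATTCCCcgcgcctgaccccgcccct
Tnfaip3: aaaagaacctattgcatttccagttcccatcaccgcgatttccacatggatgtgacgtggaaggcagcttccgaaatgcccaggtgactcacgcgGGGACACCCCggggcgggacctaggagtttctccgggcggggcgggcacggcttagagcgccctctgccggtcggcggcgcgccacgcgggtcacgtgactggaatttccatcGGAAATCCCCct
Cx3cl1: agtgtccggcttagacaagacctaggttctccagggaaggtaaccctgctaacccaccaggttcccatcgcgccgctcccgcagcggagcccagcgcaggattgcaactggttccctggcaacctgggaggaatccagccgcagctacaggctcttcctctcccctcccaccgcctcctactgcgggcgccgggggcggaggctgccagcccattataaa
The Cxcl10 stretch held 2 NF-kB matches and 1 match to the interferon element. The Cxcl1 stretch held 2 overlapping NF-kB matches, which are 1 palindrome-like run read on both strands, and that of Nfkbia held 1. Tnfaip3 held 2 in the window shown and 0 in a second window upstream of an alternative start. Cx3cl1 and Cxcl12 held no match to either. Of 32851 promoter windows of 300 bases in the table, 4.51% held the NF-kB consensus and 3.44% the interferon element. A match describes letters in this window and not a bound site.

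Cxcl10, a ligand of Cxcr3 that is induced by interferons, was among the more abundant chemokine mRNAs. The gene lies on chromosome 5 from 92346638 to 92348889. It was at 56.6 RPKM in NC1, 81.4 in NC2 and 4.50 in NC3, against 4.51 in HE1, 3.70 in HE2 and 1.77 in HE3. NC1 and NC2 were high and the other 4 samples low. Reads numbered 2392, 3508 and 192 in NC1, NC2 and NC3 and 64 to 182 in HE. Group means were 47.5 ± 39.2 (SD, n = 3) in NC and 3.33 ± 1.41 (SD, n = 3) in HE, and the groups overlapped only in that NC3 lay just below HE1. The Cxcl10 span overlaps that of Art3, which had 8 to 44 reads per sample; whether counting used strand is not given.

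Cxcl1, a neutrophil-attracting ligand of Cxcr2, lies on the same chromosome from 90891245 to 90893121. It was at 12.5, 19.1 and 3.49 RPKM in NC1, NC2 and NC3 and at 4.41, 3.86 and 1.96 in HE1, HE2 and HE3. The same samples were high as for Cxcl10, with NC3 inside the range of the HE samples.

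The CC chemokines lie on chromosome 11. Ccl2, a monocyte-attracting ligand of Ccr2 (82035577 to 82037452), was at 46.8 RPKM in NC1, 93.0 in NC2 and 5.10 in NC3, and at 6.18, 4.01 and 8.53 in HE1, HE2 and HE3. Ccl7, a related ligand whose gene (82045712 to 82047525) begins 8259 bases beyond Ccl2, measured 4.79, 9.00 and 0.659 RPKM in NC1, NC2 and NC3, and 1.19, 1.51 and 1.48 in HE1, HE2 and HE3. NC3 was the lowest of all 6 samples for Ccl7, with 10 reads, whereas for Ccl2 it lay among the HE samples. Ccl5 (83525778 to 83530518), which attracts T cells and monocytes, was at 6.27, 8.44 and 0.330 RPKM in NC1, NC2 and NC3 and at 0.233, 0.382 and 0 in HE1, HE2 and HE3. These values rest on 113, 155 and 6 reads in NC and 4, 7 and 0 in HE. In HE3, 0 reads allow a level of up to 0.194 RPKM (3 reads). Ccl5 therefore had 10 or more reads in 2 samples only and was not among the genes tested.

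The feedback inhibitor Nfkbia (chromosome 12, 55489409 to 55492647) was the most abundant of the 10 mRNAs, at 178 RPKM in NC1, 290 in NC2 and 104 in NC3, against 91.0, 94.96 and 56.5 in HE1, HE2 and HE3. All 3 HE samples lay below all 3 NC samples, with means of 191 ± 93.7 (SD, n = 3) in NC and 80.8 ± 21.1 (SD, n = 3) in HE. Tnfaip3 (chromosome 10, 19000910 to 19015410) measured 6.34, 8.24 and 3.43 RPKM in NC1, NC2 and NC3, and 3.31, 3.82 and 0.723 in HE1, HE2 and HE3. HE3 was far below the rest for Tnfaip3, and NC3 lay between HE1 and HE2.

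The other chemokines had a different order. Cx3cl1, or fractalkine, a membrane-anchored chemokine that neurons make and microglia sense (chromosome 8, 94772180 to 94782427), was at 13.7, 20.8 and 15.5 RPKM in NC1, NC2 and NC3 and 18.3, 22.6 and 30.1 in HE1, HE2 and HE3. Cxcl12, the ligand of Cxcr4 and Ackr3 that guides migrating neurons and progenitors (chromosome 6, 117168535 to 117181368), was low, at 0.365, 0.224 and 0.136 RPKM in NC and 0.478, 0.507 and 0.297 in HE, from 21 to 79 reads. Cxcl16, a membrane-anchored ligand of Cxcr6 (chromosome 11, 70454389 to 70459984), was also low, at 0.758, 0.657 and 0.332 RPKM in NC and 0.536, 0.590 and 0.597 in HE, from 19 to 43 reads. NC1 and NC2 lay above the other 4 samples for Cxcl16, as for every gene above except the other 2 of this group, Cx3cl1 and Cxcl12. That held for 8 of 10 in all, with the untested Ccl5 among them, against 19.1% of genes tested. For these 3 genes the groups overlapped, and neither NC1 nor NC2 reached the multiples over NC3 seen for Cxcl10 or Ccl2.

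**Figure D1:**
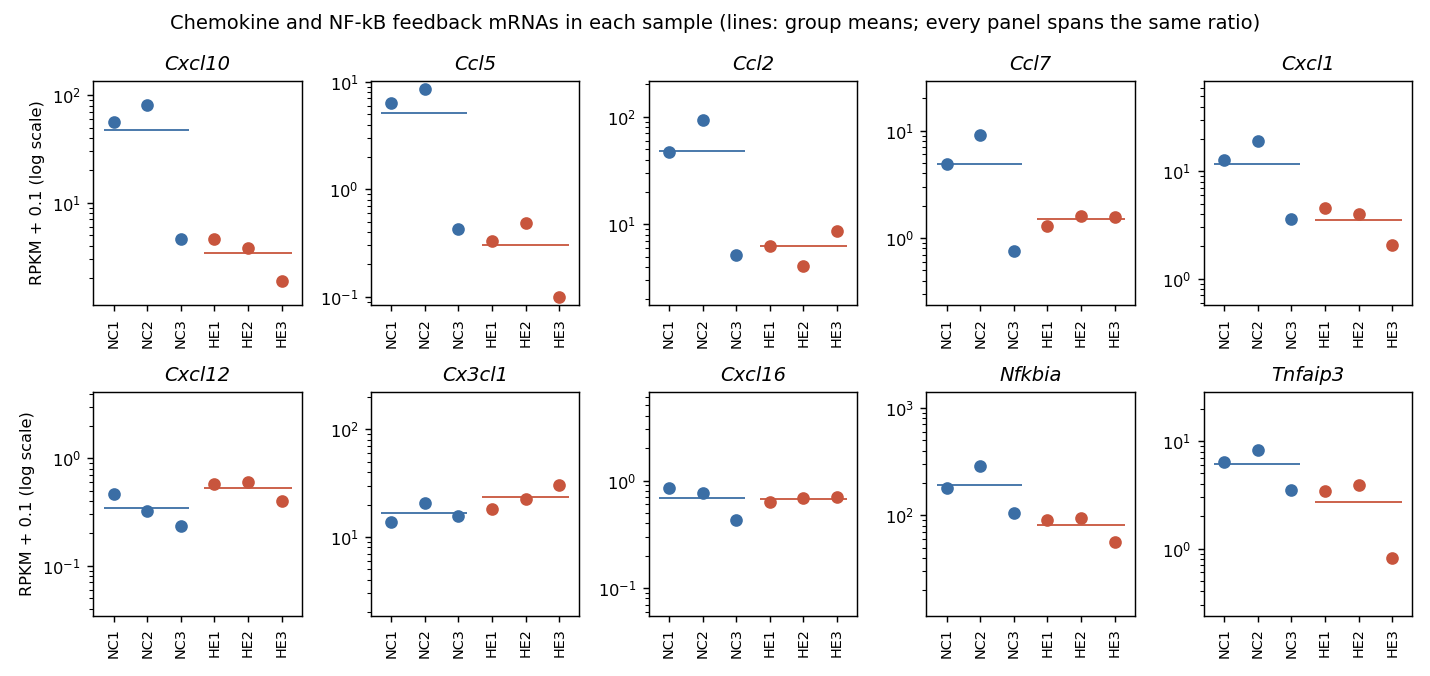
RPKM + 0.1 on a log axis for each of the 10 genes (panels) in each sample (points; NC blue, HE red), with lines at the group means of RPKM and the same ratio spanned in every panel. Cxcl10, Ccl5, Ccl2, Ccl7 and Cxcl1 were at least 2-fold higher in NC1 and NC2 than in NC3, and higher there than in every HE sample. Cxcl16 was also highest in NC1 and NC2, by smaller multiples, and Cx3cl1 and Cxcl12 were not.

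Whether these genes share the pattern of interferon-stimulated genes among the NC samples was then examined. In that list, 34 of 37 genes were at least 2-fold higher in both NC1 and NC2 than in NC3, and 37 of 37 followed the order NC2 above NC1 above NC3. Of all 13952 genes tested, 1.10% (154 genes) had the 2-fold pattern and 22.2% (3102 genes) that order. Genes read in NC1 and NC2 only did not pass the filter, so these shares leave them out. Among tested genes alone, 29 of 30 interferon-stimulated genes had the 2-fold pattern and 30 of 30 the order. The lists were chosen with earlier results of these data known, so the counts describe them and are no independent support. With 1 sample on each side there is no test of these differences, and the intervals given are exact 95% counting intervals of the read ratio of 2 libraries, which cover counting error only.

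The 2-fold pattern was present in 5 of the 10 genes (4 of the 9 tested), all inducible chemokines. Cxcl10 was 12.6-fold (10.9 to 14.6) higher in NC1 and 18.1-fold (15.6 to 21.0) higher in NC2 than in NC3. Ccl5 was 19.0-fold (8.47 to 52.9) and 25.6-fold (11.49 to 70.8) higher, with wide intervals from the 6 reads in NC3. Ccl2 was 9.17-fold (7.52 to 11.3) and 18.2-fold (15.0 to 22.3) higher, and Ccl7 7.27-fold (3.73 to 15.8) and 13.7-fold (7.21 to 29.1). Cxcl1 had the smallest of these folds, 3.59 (2.94 to 4.42) and 5.46 (4.50 to 6.67). Over the 30 tested interferon-stimulated genes the folds ran from 1.68 to 40.7 in NC1, with a median of 6.57, and from 2.30 to 73.7 in NC2, with a median of 8.35. The 5 chemokines thus lay within the range of the interferon-stimulated genes. Nfkbia (1.72 and 2.79) and Tnfaip3 (1.85 and 2.40) also lay within it, near its lower end, so this range does not set the 5 apart.

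Nfkbia and Tnfaip3 had the same order at smaller folds. Nfkbia was 1.72-fold (1.64 to 1.79) higher in NC1 and 2.79-fold (2.68 to 2.91) higher in NC2 than in NC3. For Tnfaip3 the folds were 1.85 (1.65 to 2.08) and 2.40 (2.16 to 2.68). The order NC2 above NC1 above NC3 was followed by 7 of the 10 genes (6 of the 9 tested).

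Cxcl16, Cxcl12 and Cx3cl1 did not have the pattern. Cxcl16 was 2.28-fold (1.30 to 4.15) higher in NC1 and 1.98-fold (1.11 to 3.64) higher in NC2 than in NC3, just outside the 2-fold rule. Cxcl12 was 2.69-fold (1.60 to 4.68) higher in NC1, and its NC2 interval of 0.934 to 2.98 included 1. Cx3cl1 was 0.879-fold (0.805 to 0.960) in NC1 and 1.34-fold (1.23 to 1.45) in NC2.

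**Figure D2:**
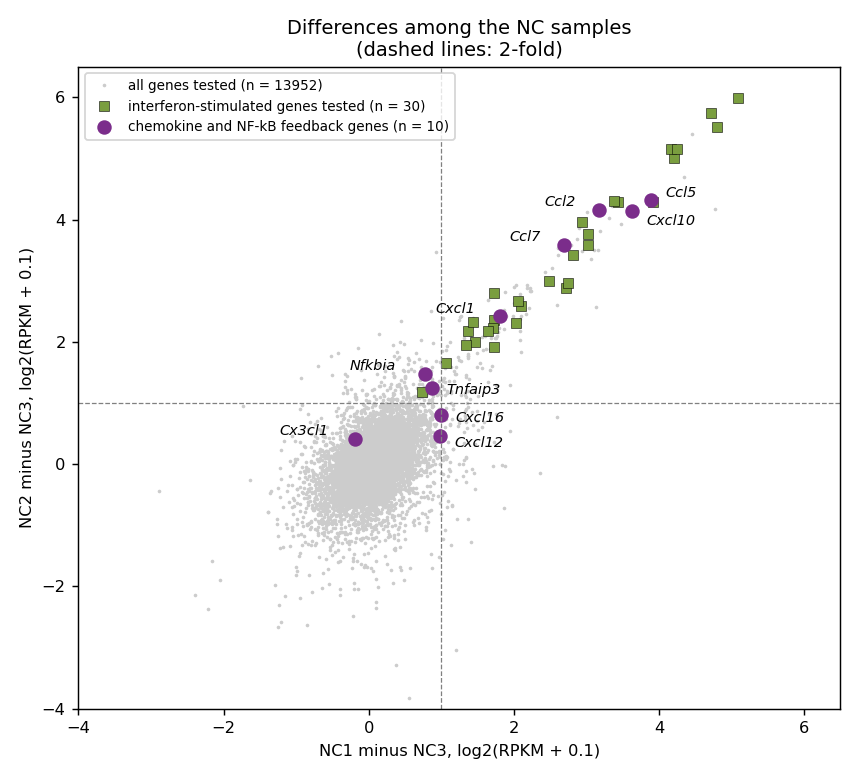
Difference of NC1 (horizontal) and NC2 (vertical) from NC3 in log2(RPKM + 0.1) for the 13952 genes tested (grey), the 30 tested interferon-stimulated genes (green squares) and the 10 chemokine and NF-kB feedback genes (purple). Ccl5, Cxcl10, Ccl2, Ccl7 and Cxcl1 lie among the squares, beyond both dashed 2-fold lines, and Cx3cl1 lies in the main cloud.

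Likeness over all 6 samples was measured as the root mean square difference between a gene's centred log2 profile and the median profile of the 30 interferon-stimulated genes. This distance was 0.448 for Cxcl1, 0.519 for Ccl2, 0.602 for Ccl7 and 0.676 for Cxcl10. The interferon-stimulated genes themselves had a median of 0.479 (range 0.0962 to 1.39), and all genes tested a median of 1.40. It was 0.757 for Nfkbia and 0.925 for Tnfaip3. Ccl5 was at 1.02, and Cxcl16, Cxcl12 and Cx3cl1 were farther, at 1.28, 1.59 and 1.63. The genes closest to each were named by the same distance. Those of Cxcl10 were H2-Q6 (0.226), Trim30a (0.360) and Bst2 (0.377). Those of Ccl2 were Gbp3 (0.155), Gbp10 (0.272) and Xaf1 (0.305), and those of Ccl7 included Gbp4 (0.194) and Ifit2 (0.358). Gbp3, Gbp4 and Gbp10 are guanylate-binding proteins. Cxcl1 was closest to Parp9 (0.140), Sh3d21 (0.157) and Icosl (0.169). Of the genes named here for these chemokines, Trim30a, Bst2, Xaf1, Ifit2 and Parp9 are in the interferon list and the others are not. Nfkbia was closest to Cldn19 (0.152), Mvp (0.157) and Eva1b (0.160), none of which is in the interferon list, and Cx3cl1 to Tmem144 (0.0624).

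HE samples were compared with NC samples by limma on log2(RPKM + 0.1), with Benjamini-Hochberg adjustment over the 13952 genes tested. None of the 9 tested genes was called at an adjusted p under 0.05 with an absolute log2 fold change of 1 or more, and neither was any other gene (0%), nor any in limma's voom on the reads (0). The paper, with DESeq2 at the same cutoffs, did report differentially expressed mRNAs, so the 0 calls hold for the tests used here. An unadjusted p under 0.05 was reached by 3 of the 9, all lower in HE (Cxcl10, Cxcl1 and Nfkbia), against 11.8% of all genes lower and 8.68% higher. By sign, 6 lay lower in HE and 3 lay higher, against 56.2% and 43.8% of all genes, and their median difference on the log2 scale was −1.15 against −0.06 over all genes. Nfkbia alone had groups that did not overlap, with every HE sample below every NC sample, as 17.9% of all genes had and 14.8% in the other direction.

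Cxcl10 had a log2 fold change of −3.11 (SE 1.02, limma adjusted p = 0.197), Ccl2 of −2.22 (SE 0.97, limma adjusted p = 0.249) and Cxcl1 of −1.52 (SE 0.61, limma adjusted p = 0.231). For Nfkbia it was −1.15 (SE 0.38, limma adjusted p = 0.197), for Tnfaip3 −1.37 (SE 0.62, limma adjusted p = 0.258) and for Ccl7 −1.13 (SE 0.82, limma adjusted p = 0.423). The genes higher in HE were Cxcl12 at 0.66 (SE 0.32, limma adjusted p = 0.274), Cx3cl1 at 0.49 (SE 0.22, limma adjusted p = 0.259) and Cxcl16 at 0.04 (SE 0.29, limma adjusted p = 0.939). For Ccl5, whose log2 difference was −3.50, the two-sided exact permutation test over the samples gave p = 0.2, where the smallest p that 3 against 3 allows is 0.1.

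Leaving out NC3 changed these calls. Cxcl10 was then at −4.41 (SE 0.40, limma adjusted p = 0.0105), Ccl2 at −3.45 (SE 0.40, limma adjusted p = 0.0223) and Ccl7 at −2.17 (SE 0.30, limma adjusted p = 0.0449), which were called with 0.738% of all genes (103 genes). Cxcl1 was at −2.23 (limma adjusted p = 0.0882) and Nfkbia at −1.53 (limma adjusted p = 0.131). Cxcl16 turned to −0.26. Without HE3, Cxcl10 was at −2.73, Ccl2 at −2.48, Ccl7 at −1.17 and Nfkbia at −0.91, and Tnfaip3 was at −0.65, less than its value with all samples. Nothing in the labels gives a ground for leaving out either sample, and NC3 was noticed for its levels of genes such as these. All 30 tested interferon-stimulated genes were lower in HE, with a median of −2.00 with all samples and −2.96 without NC3, when 24 were called. All HE samples lay below all NC samples in 18 of the 30, against 1 (Nfkbia) of the 9 tested genes described here.

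**Figure D3:**
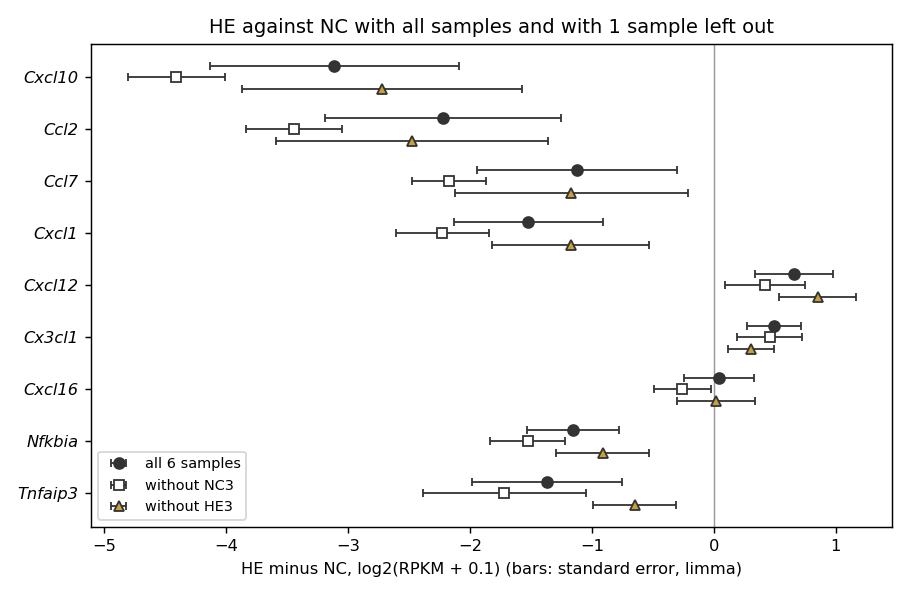
Log2 fold change (HE minus NC, log2(RPKM + 0.1)) with its limma standard error for the 9 tested genes, from all 6 samples (circles), without NC3 (squares) and without HE3 (triangles). Without NC3 the values of Cxcl10, Ccl2, Ccl7 and Cxcl1 are farther below 0 and their errors smaller, and Tnfaip3 is nearer to 0 without HE3.

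The HE samples were then set against NC3 alone. NC3 lay within the range of the HE samples for Cxcl10, Ccl5, Ccl2, Cxcl1 and Tnfaip3 (5 of 10), below every HE sample for Ccl7, Cxcl12, Cx3cl1 and Cxcl16 (4 of 10) and above every HE sample for Nfkbia. The mean log2 difference of the HE samples from NC3 was −0.52 for Cxcl10 and 0.22 for Ccl2. It was 0.96 for Ccl7 and 1.14 for Cxcl12. The Cxcl12 folds over NC3 were 3.53, 3.74 and 2.19 in HE1, HE2 and HE3, and the Ccl7 folds 1.80 (0.778 to 4.40), 2.28 (1.05 to 5.38) and 2.24 (0.990 to 5.39), from few reads. The median over the 10 genes was 0.05. Among the interferon-stimulated genes, NC3 lay above every HE sample in 18 of the 30 tested. The shares of all genes with NC3 within, below or above the HE samples were not counted, so these counts have no background. The median differences from NC3 in HE1, HE2 and HE3 were −0.21, −0.31 and −0.65 for the interferon-stimulated genes. They were 0.27, 0.15 and 0.69 for the 9 tested genes and 0.03, 0.02 and −0.13 over all genes tested. These are differences from 1 sample and carry no test.

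The receptors of these chemokines were mostly at or near 0. Receptors are named here because they bind the chemokines above, and those outside the tested list were chosen after their values were seen. Cxcr3, the receptor of Cxcl10, had 0 reads in all 6 libraries, and Ccr2, which binds Ccl2 and Ccl7, had 0 to 4 reads per sample. Ccr1, which binds Ccl5 and Ccl7, had 0 to 1. Cxcr2, the receptor of Cxcl1, had 0 to 18 reads, and Cxcr6, the receptor of Cxcl16, 5 to 15. The exception was the Cxcl12 pair: Cxcr4 was at 16.6, 16.0 and 11.3 RPKM in NC1, NC2 and NC3 and 11.6, 10.7 and 8.19 in HE1, HE2 and HE3 (log2 fold change −0.52, SE 0.20, limma adjusted p = 0.222), and the scavenger receptor Ackr3 at 4.14, 5.13 and 3.30 RPKM in NC and 6.74, 6.30 and 5.61 in HE (0.58, SE 0.19, limma adjusted p = 0.197). Cxcr4 was thus higher in NC1 and NC2 than in every HE sample, and Ackr3 was higher in every HE sample than in every NC sample. The latter held for 2 of the 9 receptors tested and for 14.8% of all genes. Of 9 receptors tested, HE was below NC for 4 and above it for 5, at a median difference of 0.02 in log2. The 2-fold NC pattern was present in 1 of them, Ccrl2, which had few reads. It was at 0.287, 0.764 and 0.061 RPKM in NC1, NC2 and NC3 and 0.279, 0.404 and 0.192 in HE1, HE2 and HE3. Cx3cr1, the fractalkine receptor, had 2 to 18 reads per sample.

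Of the other 26 chemokine genes in the table, 6 passed the filter and 20 did not, the latter with at most 25 reads in any sample. By sign each of these 6 was lower in HE (56.2% of all genes), 2 of them at an unadjusted p under 0.05 (11.8% of all genes). Their log2 differences ran from −2.09 to −0.01, the latter without a change, with a median of −0.62. Cxcl2, another neutrophil-attracting chemokine, was at 3.04, 3.54 and 0.383 RPKM in NC1, NC2 and NC3 and 0.513, 0.431 and 0.120 in HE1, HE2 and HE3 (log2 fold change −2.09, SE 0.80, limma adjusted p = 0.221), and had the 2-fold pattern among NC samples together with Cxcl5. Cxcl14 was at 7.31, 9.00 and 7.30 RPKM in NC and 4.14, 3.02 and 7.98 in HE, so that NC3 did not stand apart.

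Among 19 tested NF-kB feedback and target genes other than Nfkbia and Tnfaip3, HE was below NC for 17 and above it for 2, of which 13 and 1 had an unadjusted p under 0.05 (11.8% and 8.68% of all genes), and the median log2 difference was −0.89. In 11 of the 19 all HE samples lay below all NC samples, as in 17.9% of all genes. The 2-fold NC pattern was present in 5 (Nfkbie, Icam1, Vcam1, Tnfaip2 and Lcn2). Lcn2, lipocalin-2, a secreted iron-siderophore carrier, was at 93.0, 119 and 4.47 RPKM in NC1, NC2 and NC3 and 3.43, 1.46 and 5.52 in HE1, HE2 and HE3 (log2 fold change −3.56, SE 1.20, limma adjusted p = 0.203). Tnfaip2 was at 76.4, 101 and 29.6 RPKM in NC and 23.1, 18.4 and 8.82 in HE (−1.97, SE 0.51, limma adjusted p = 0.195). Ier3, an early response gene, was at 166, 188 and 136 RPKM in NC and 112, 92.9 and 92.2 in HE (−0.71, SE 0.16, limma adjusted p = 0.195), so for Ier3 and Tnfaip2 NC3 also lay above every HE sample. The NF-kB targets Il6, Tnf and Il1b had at most 3 reads in any sample.

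Of the 18 subunits, kinases and adaptors of the NF-kB pathway, HE was below NC for 16 and above it for 2 (56.2% and 43.8% of all genes), 7 of the lower genes had an unadjusted p under 0.05 (11.8% of all genes), the median was −0.35, and 0 had the 2-fold NC pattern. Rela, the main activating subunit, was at 24.3, 23.2 and 19.0 RPKM in NC1, NC2 and NC3 and 14.9, 16.1 and 10.4 in HE1, HE2 and HE3 (−0.70, SE 0.19, limma adjusted p = 0.195). Relb was at 15.9, 16.7 and 8.56 RPKM in NC and 7.40, 6.56 and 6.72 in HE (−0.92, SE 0.25, limma adjusted p = 0.195). For both genes the groups did not overlap. All HE samples lay below all NC samples in 6 of the 18, as in 17.9% of all genes. They lay above in 1, as in 14.8% of all genes. In the list of interferons, their receptors and sensors, 0 of 14 tested genes had the pattern (1.10% of all genes), at a median of −0.20. The sensors Ifih1, Ddx58 and Dhx58, named after their values were seen, had it. They were counted with the interferon-stimulated genes and not in this list. Ifnb1, Ifna4 and Ifng had at most 3 reads in any sample, and Ifnar1 was at 19.7, 21.3 and 19.8 RPKM in NC and 20.1, 19.6 and 23.9 in HE.

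Immediate-early genes, which respond within minutes to handling or growth factors, had no such pattern (0 of 15). Their median difference from NC3 was 0.22 in HE1 and 0.64 in HE2 but −1.74 in HE3, and their median HE minus NC difference was −0.21 with HE3 and 0.54 without it. Fos was at 94.8, 127 and 169 RPKM in NC and 231, 276 and 40.7 in HE. The low Tnfaip3 of HE3 moved with these genes; their part in it was not tested.

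**Figure D4:**
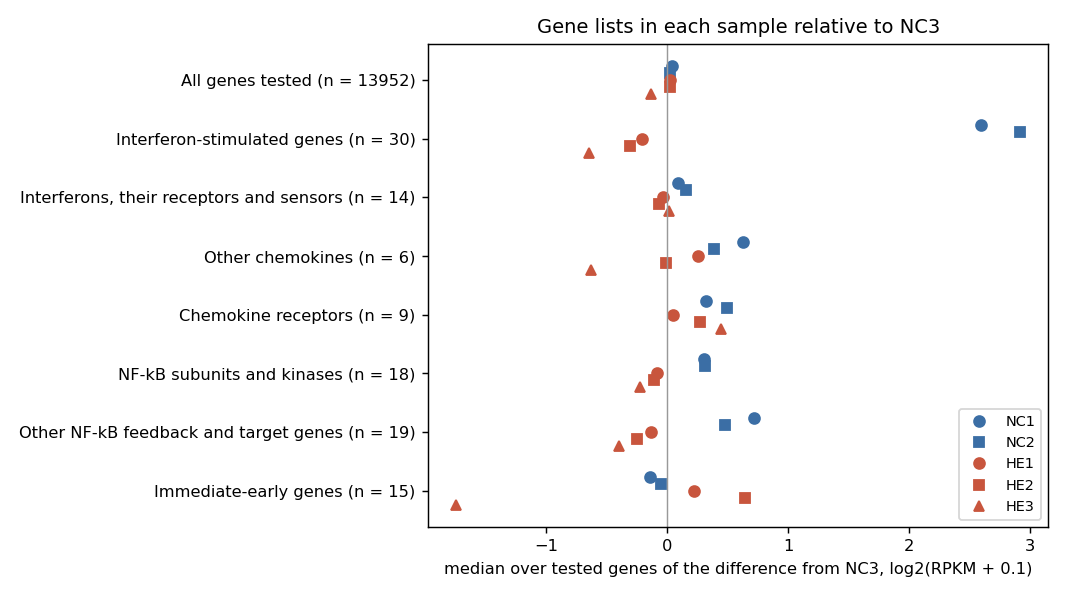
Median over tested genes of the difference from NC3 in log2(RPKM + 0.1), for each gene list (rows) and each other sample (NC blue, HE red). The interferon-stimulated list is at 2.60 in NC1 and 2.92 in NC2 and below 0 in HE. The NF-kB lists are also above 0 in NC1 and NC2 and below 0 in HE, by less. Their feedback and target list is higher in NC1 (0.71) than in NC2 (0.48). Immediate-early genes are lowest in HE3, at −1.74.

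Among markers of other cell types, 0 in each list had the 2-fold NC pattern on log2(RPKM + 0.1), but the summed levels of astrocyte, of microglia and macrophage and, with NC1 close to NC2, of T and NK cell markers had the order NC2 above NC1 above NC3. Adding 0.1 damps the folds of markers with few reads. In NC1, NC2 and NC3, Aif1 had 7, 4 and 1 reads and Cx3cr1 11, 10 and 2. Trem2 (0, 0 and 3) and Ptprc (0, 0 and 2) were among those that went the other way. The 10 astrocyte markers summed to 1651, 1978 and 1590 RPKM in NC1, NC2 and NC3 and to 1152 to 1640 in HE. Among them, Aqp4, a water channel, was at 37.5, 47.7 and 20.2 RPKM in NC1, NC2 and NC3 and 31.4, 23.2 and 15.6 in HE1, HE2 and HE3. Slc1a3 had the same NC order, at 185, 213 and 162 RPKM in NC1, NC2 and NC3. Others did not: Gja1 was at 68.5, 39.3 and 66.0 RPKM in NC1, NC2 and NC3. In these samples Aldoc was at 98.4, 151 and 107 RPKM, Fgfr3 at 25.5, 37.1 and 30.7, and Gfap at 624, 754 and 624. The 14 microglia and macrophage markers, of which 6 passed the filter, summed to 14.8, 17.6 and 12.8 RPKM in NC1, NC2 and NC3 and 13.7 to 39.7 in HE. Cd68, a lysosomal protein, made up most of the NC sums, at 12.8, 16.6 and 10.7 RPKM in NC1, NC2 and NC3 and 8.13, 8.59 and 4.601 in HE1, HE2 and HE3. Lyz2, lysozyme, carried the highest HE sum, at 0.758, 0.248 and 1.38 RPKM in NC and 9.44, 2.98 and 25.4 in HE. C1qa had 0, 0 and 1 reads in NC1, NC2 and NC3 and 18, 5 and 53 in HE1, HE2 and HE3. P2ry12 had 13, 16 and 15 reads in NC1, NC2 and NC3 and 21, 14 and 6 in HE1, HE2 and HE3. The markers of this list thus did not move together. The part of these cells in the chemokine levels was not tested. The T and NK cell markers had 0 genes past the filter, with Cd2 at 0 reads in all NC samples, and sums of 0.297 to 0.344 RPKM in NC and 0.263 to 0.972 in HE. Endothelial markers summed to 3.80 to 5.59 RPKM in NC and 5.86 to 8.19 in HE, mesenchymal markers to 62.1 to 133 and 98.5 to 205, and neuronal markers to 44.1 to 75.6 and 50.9 to 68.3. In these bulk samples, fewer cells of a type and less RNA per cell cannot be told apart.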

How the data were processed

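RNA-Seq libraries of 6 samples (3 NC, 3 HE) were strand-specific. The authors aligned reads with TopHat2 to mm10 (CASAVA 1.7 stands in the submitters' notes) and tested groups with DESeq2. The counting tool, the annotation release and whether counting used strand are not given in the sources used here, and the sequencer is named differently in the labels and the methods. The deposited table gives per gene a transcript length, read numbers and RPKM values made by the authors; RPKM equalled reads divided by length and by the library's total reads on genes. Read numbers carry comma separators, so the deposited columns were used after removing these, and limma on RPKM, not a count model, was the main test.

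Identifiers were matched to symbols for 21781 of 22048 genes, and gene positions and promoters came from RefSeq tables of GRCm38.p6. A gene was tested (13952 genes) if 3 or more samples had a read rate worth 10 reads at the median library size and its reads came to 15 or more in all. log2(RPKM + 0.1) was fitted by group with limma 3.58.1 (mean-variance trend) in R 4.3.3, with Benjamini-Hochberg adjustment; fold changes on this scale understate low genes. Calls needed an adjusted p under 0.05 with an absolute log2 fold change of 1 or more. The script was checked on simulated data. Groups came from sample titles. Alternatives were another pseudocount (1), median-of-ratios scaling, other filters, limma's voom on reads, the replicate number as a block and leaving out each sample. All 10 genes are named. From each list, the 3 tested genes of highest mean RPKM and the 3 of largest absolute log2 fold change could be named, and for likeness the 3 closest genes of at least 1 CPM on average; a part of these is printed, and the genes with the NC pattern (5 or fewer per list) were added after their values were seen. Genes and lists were chosen with earlier results of these data known. Mx2, Cxcl11 and Trac were not analysed here, and some genes that the rules would name are not reported here. Depth was 16078675 to 19137059 reads; intervals cover counting error only.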

Additional observations from a re-analysis of the deposited data

How the results depend on the processing

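No gene was called with all samples, under either pseudocount, scaling, filter or voom fit. Leaving out each sample in turn gave 0 to 103 called genes overall and 0 to 3 among the chemokine and NF-kB feedback genes, with every call coming without NC3. Of 117 alternative values of the 9 tested genes, 113 kept direction and side of the threshold, 3 passed it without NC3 (Cxcl10, Ccl2 and Ccl7), and 1 reversed: Cxcl16, at −0.26 without NC3 (−0.26 to 0.24 over the samples left out). Ccl7 was at −0.38 and Ccl2 at −1.37 without NC2, and Tnfaip3 at −0.65 and Cx3cl1 at 0.31 without HE3. Cxcl12 was at 0.42 without NC3 and at 0.20 with a pseudocount of 1. With a 1.5-fold threshold 8 of the 10 genes had the NC pattern in place of 5, adding Cxcl16, Nfkbia and Tnfaip3, and with a 4-fold threshold 4 had it. Same-numbered samples deviated together only weakly (r = 0.156, 0.087 and 0.060 for numbers 1, 2 and 3), so the numbers were not taken to pair the samples. With the replicate block, 0 genes were called, and Cxcl10 was at −3.11 (limma adjusted p = 0.106) and Nfkbia at −1.15 (limma adjusted p = 0.0990). Median-of-ratios scaling moved the median gene from −0.06 to −0.0014. Ccl5 and Cxcl12 rest on few reads, which limits their folds.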
